A study of Mus musculus with 10 samples.

Results

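The Rap genes described here are 10 members of one small-GTPase pathway in meningeal lymphatic endothelial cells (LECs): the GTPases Rap1a, Rap1b, Rap2a, Rap2b and Rap2c, the exchange factors Rapgef1, Rapgef2 and Rapgef3, and the effectors Rasip1 and Radil. They were picked by gene symbol from the 55401 genes of the deposited count table. The set was chosen by family, and with a measured value in view: the Rap2b counts, which were higher in every stressed replicate than in every naive replicate. The members' differences between naive and stressed mice are therefore given as a description, with no test of their own.

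RNA was sequenced from LECs that were sorted as CD45-CD31+podoplanin+ cells from the meninges of 3-month-old female C57BL/6 mice (C57BL/6J in the study's methods). There were 5 replicates from naive mice and 5 from mice exposed to sub-chronic variable stress (SCVS) for 6 days, and the comparison asks which genes of these cells differed after stress. Each replicate was 1 pool of cells from 3 to 4 animals, so that a value is an average over a pool. Libraries held 9984743 to 14094155 counts, and levels are given as CPM, counts scaled to a library total of 1000000. In bulk samples such as these, fewer cells of a type and less RNA per cell cannot be told apart.

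Rap proteins are small GTPases of the Ras superfamily that switch between an inactive GDP-bound and an active GTP-bound form. Exchange factors load them with GTP, GTPase-activating proteins switch them off, and active Rap binds effectors that act on integrins, cell junctions and the actin cytoskeleton. In endothelium, Rap1 is known for tightening VE-cadherin junctions and thereby the vessel barrier, and Rasip1 and Radil are among its effectors.

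The libraries were first checked against cell type markers. Of the naive replicates, naive 5 stood apart, with 569 CPM summed over 8 general endothelial markers, against 5861 to 8468 CPM in the other naive replicates and 3907 to 7706 CPM in the SCVS replicates. Naive 1 held few lymphatic transcripts: the 7 lymphatic markers summed to 60.8 CPM, with 0 counts of Prox1 and Pdpn and 2 of Lyve1, against 185 CPM in naive 5, 439 CPM in the lowest SCVS replicate and 3074 CPM in the highest. The 8 blood endothelial markers, genes of cells that the podoplanin gate is meant to leave out, summed to more CPM than the lymphatic markers in 10 of 10 libraries. In naive 5 that sum came from few genes, with 3 of 8 blood endothelial markers above 3 counts against 6 of 7 lymphatic markers. Each member is therefore given in every library, and the members' fold changes are also given without naive 5 or without naive 1 and naive 5.

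Rap1b had the highest count of all members in every library. This GTPase is one of a pair of near-identical Rap1 proteins and the main form of platelets. Its level was 601, 960.5, 825, 617 and 302 CPM in the naive libraries, by replicate number. Among SCVS libraries it was 795, 981, 959, 729 and 843 CPM. The SCVS values all lay within or just above the upper part of the naive range, and naive 5 was lowest of all. The means were 661 ± 250.3 CPM over naive and 861 ± 108 CPM over SCVS libraries (SD, n = 5 per group). The log2 fold change, 0.34 (standard error 0.30), came to 0.16 without naive 5 and 0.08 without naive 1 and naive 5.

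Rap1a, the other Rap1 gene, was lower than Rap1b throughout. It measured 77.2, 211, 196, 148 and 63.1 CPM in the naive libraries, by replicate number. The SCVS libraries, numbered likewise, gave 268, 145, 136, 151 and 117 CPM. The groups overlapped, with SCVS 1 above all other libraries and naive 5 and naive 1 below them. The log2 fold change was 0.20 (standard error 0.41), and it turned to −0.20 without naive 1 and naive 5. Rap1b made up 74.8% to 88.6% of the counts of both Rap1 genes and 48.5% to 72.7% of the counts of all 10 members. How many reads could have come from either Rap1 gene was not tested. The annotated pseudogene Rap1a-ps2 had 0 counts.

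Levels of different genes were compared per kb of exon, as CPM per kb. Rap1b stood at 376 ± 104 CPM per kb and Rap1a at 63.0 ± 25.6 CPM per kb (SD, n = 10), and Rap1b was higher in 10 of 10 libraries. The paired difference in log2(CPM per kb + 1), Rap1a minus Rap1b, was −2.60 ± 0.44 (SD, n = 10). Its 2-sided exact permutation p was 0.00195, the smallest that 10 libraries can give, and 0.00326 after Benjamini-Hochberg adjustment over the 10 pairs compared. Rap1b differed from Rap2a by 6.13 and from Rap2c by 6.29 on the same log2 scale, again in 10 of 10 libraries. Rap1a differed from Rap2a by 3.53 and from Rap2c by 3.69, also in 10 of 10 libraries. Each of these differences had the same exact permutation p, 0.00195, and the same adjusted p, 0.00326.

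**Figure D1:**
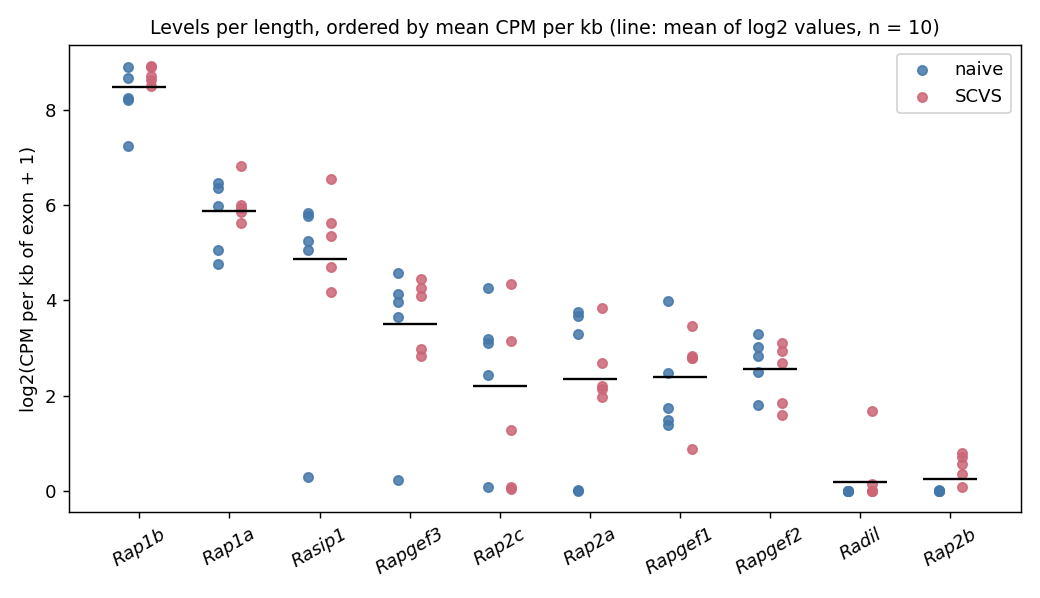
Level of each member as log2(CPM per kb of exon + 1), 1 point per library (blue, naive; red, SCVS) with the mean of the 10 libraries as a line. Genes are ordered by mean CPM per kb, from Rap1b at 376 to Rap2b at 0.221, and the points of the Rap1 genes spread less than those of Rap2a and Rap2c.

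The Rap2 GTPases share the Rap fold but signal through a separate set of effectors, the TNIK and MAP4K4 family of kinases among them. Rap2a and Rap2c were either well covered or nearly absent, depending on the library. Rap2a had 1, 627, 731, 0 and 492 counts in the naive libraries, by replicate number. Values for the SCVS libraries were 173, 678, 186, 191 and 227 counts. Naive 1 and naive 4 were thus at the floor of 3 counts or below it, while the other 8 libraries held 173 counts or more. Rap2a averaged 27.7 ± 25.9 CPM over naive and 24.0 ± 18.1 CPM over SCVS libraries (SD, n = 5 per group), with a log2 fold change of −0.29 (standard error 1.48). It was −0.16 without naive 5 and −0.57 without naive 1 and naive 5. In limma with voom this difference was 3.15, of the opposite sign, and it was not called there either.

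Rap2c, the X-linked member, had 2, 201, 406, 878 and 360 counts in the naive libraries, by replicate number. SCVS libraries, by number, stood at 3, 61, 849, 372 and 1 counts. Naive 1, SCVS 1 and SCVS 5 were at or under the floor, so that the libraries without Rap2c were not those without Rap2a, apart from naive 1. Its means were 27.3 ± 23.8 CPM over naive and 20.5 ± 29.4 CPM over SCVS libraries (SD, n = 5 per group), with a log2 fold change of −0.38 (standard error 1.57). This was −0.38 without naive 5, −0.79 without naive 1 and naive 5, and −2.43 in limma with voom. Rap2a and Rap2c did not differ detectably per length: the paired difference was 0.16 ± 2.17 on the log2 scale (SD, n = 10; exact permutation p = 0.826, adjusted p = 0.826), with Rap2a higher in 6 of 10 libraries.

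Rap2b, an intronless gene, was the member whose counts led to the choice of the set. It had 0, 0, 0, 1 and 0 counts in the naive libraries, by replicate number. The SCVS libraries, numbered likewise, gave 28, 38, 3, 35 and 12 counts. The groups did not overlap, but the margin was 1 count in naive 4 against 3 counts in SCVS 3, or 0.0737 against 0.243 CPM, and SCVS 3 itself lay at the floor of 3 counts. Rap2b averaged 0.0147 ± 0.0329 CPM over naive and 1.84 ± 1.15 CPM over SCVS libraries (SD, n = 5 per group), at least 7.77-fold higher in SCVS when the naive level is set at 3 counts per library. Radil came nearest to that pattern among the other members, with 0 counts in naive replicates but also in 3 SCVS replicates. Rap2b passed the low-count filter only through the SCVS libraries.

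Over all genes, 0.445% of the 14815 tested had every SCVS value above every naive one, and 0.628% did not overlap in either direction. Rap2b is 1 of the 9 tested members, and since it was picked for this property nothing is read from the count. Per length, Rap2b stayed low even in SCVS 2, where it was highest, at 0.744 CPM per kb against 1.41 for Rap2c and 13.3 for Rap2a. In SCVS 1 and SCVS 5, where Rap2c was at or under the floor, Rap2b stood above it, at 0.473 against 0.0600 and 0.286 against 0.0283 CPM per kb. A gene on the opposite strand, B430305J03Rik, overlaps 1445 bases of the Rap2b exon and had 0 counts in every library. Platelet markers, 5 genes, summed to 0.075 to 327 CPM in naive and 95.1 to 531 CPM in SCVS libraries. Of these Pf4 had 0 counts in naive 5, 1 in naive 1 and 126 to 1523 in the other libraries. The 6 myeloid markers summed to 0.576 to 555 CPM in naive and 133 to 4070 CPM in SCVS libraries. Among them Ptprc, which encodes CD45, had at most 1 count in any naive library. Its counts in the SCVS libraries were 27, 0, 0, 113 and 404, by replicate number. Other myeloid markers were present in naive libraries, with 3532 counts of Lyz2 and 2071 of Mrc1 in naive 4. The part of either cell type in the Rap2b counts was not tested.

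Counting the Rap2 genes with more than 3 counts gave 0, 2, 2, 1 and 2 for the naive libraries by number, and 2, 3, 2, 3 and 2 for the SCVS libraries. Rap2b, whose counts chose the set, entered this tally in 0 naive and 4 SCVS libraries, so no group difference is read from it. Rap2a was above 3 counts in 3 naive and 5 SCVS libraries, and Rap2c in 4 naive and 3 SCVS libraries. Both Rap1 genes were above that floor in 10 of 10 libraries. Such gaps were common in these libraries: 48.3% of the 14815 tested genes had 0 counts in at least 1 library and at least 100 in another. Of the 9 tested members, Rap2a was the 1 gene that met this rule.

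**Figure D2:**
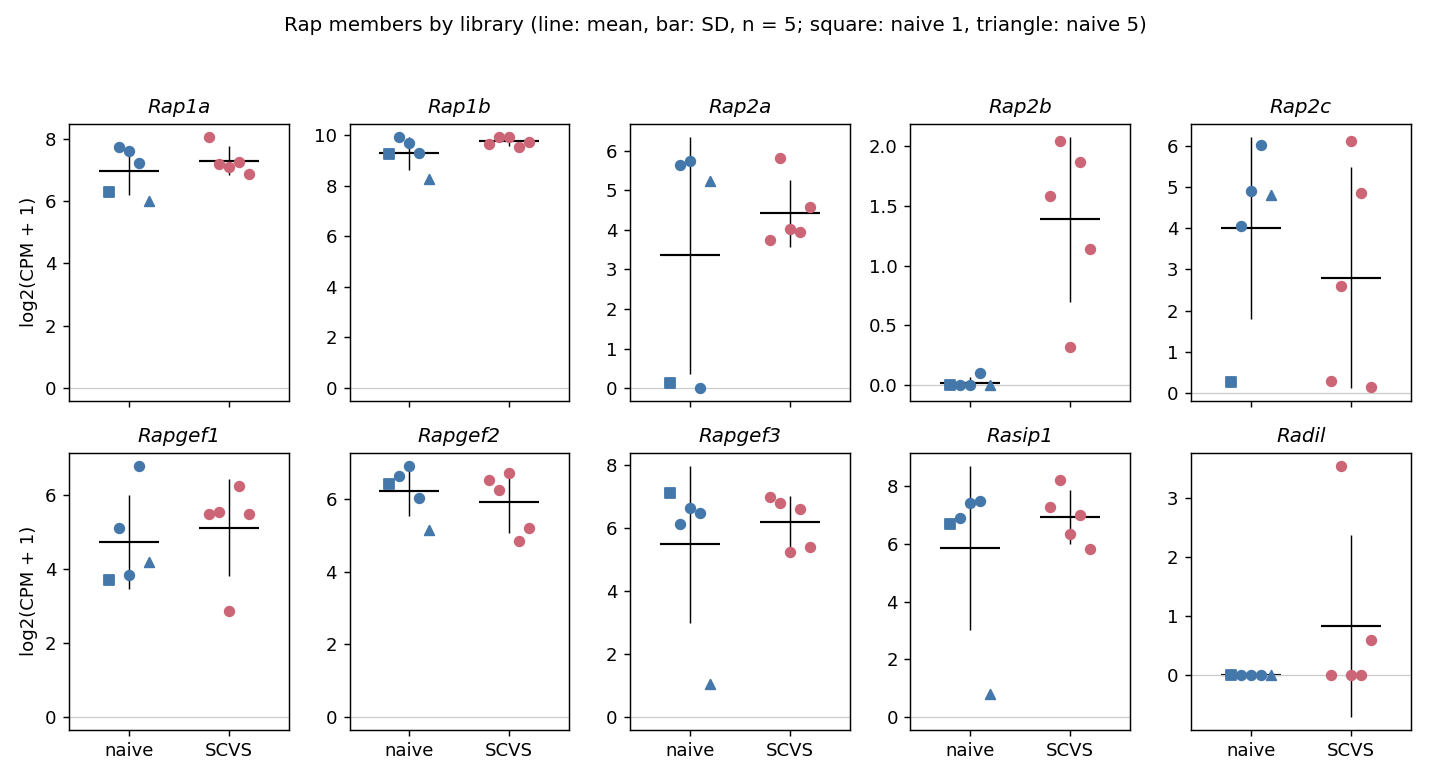
Level of each member as log2(CPM + 1) in the 5 naive (blue) and 5 SCVS (red) libraries, with the group mean as a line and the SD as a bar. The square is naive 1 and the triangle naive 5, and the vertical axis differs between panels. The groups overlap for every member except Rap2b, whose axis ends near 2, and naive 5 is far below the other libraries for Rapgef3 and Rasip1.

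The exchange factors differ in what turns them on. Rapgef3, or Epac1, is activated directly by cyclic AMP and is the form best known in endothelium. It measured 136, 68.9, 99.2, 87.3 and 1.05 CPM in the naive libraries, by replicate number. Values for the SCVS libraries were 126, 109, 36.4, 95.8 and 41.3 CPM. Naive 5, with 14 counts, was at 1.18% of the mean of the other 9 libraries, which ranged from 36.4 to 136 CPM. The log2 fold change, −0.02 (standard error 0.83), was −0.33 without naive 5 and −0.10 without naive 1 and naive 5. An antisense transcript that overlaps 351 exon bases of Rapgef3, Gm16256, had 0 to 105 counts in naive and 0 to 20 counts in SCVS libraries. Whether the counting used the strand is not given in the sources used here.

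Rapgef2, also called PDZ-GEF1, is an exchange factor found at cell junctions. By replicate number, the naive libraries held 84.2, 99.1, 121, 64.6 and 34.6 CPM of Rapgef2 (median 84.2). The SCVS libraries held 92.4, 74.8, 105, 27.8 and 35.8 CPM (median 74.8). The groups overlapped, and the log2 fold change was −0.32 (standard error 0.51), or −0.51 without naive 5 and −0.53 without naive 1 and naive 5. Rapgef1 is recruited to activated receptors and integrins through Crk adaptors. It measured 12.0, 33.5, 13.4, 109.9 and 17.3 CPM in the naive libraries, by replicate number. SCVS libraries, by number, stood at 43.8, 45.3, 6.25, 74.3 and 43.5 CPM. Naive 4 stood above all other libraries and SCVS 3 below them. The log2 fold change of Rapgef1 was 0.18 (standard error 0.82), with 1.11 without naive 4 and −0.29 without naive 1 and naive 5.

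Per length, Rapgef3 was the most abundant of these exchange factors at 13.4 ± 7.15 CPM per kb, ahead of Rapgef1 at 5.40 ± 4.35 and Rapgef2 at 5.36 ± 2.35 CPM per kb (SD, n = 10). It was higher than each of the other two in 8 of 10 libraries. The difference Rapgef1 minus Rapgef3 was −1.13 ± 1.37 on the log2 scale (SD, n = 10; exact permutation p = 0.0312, adjusted p = 0.0446). The difference Rapgef2 minus Rapgef3 was −0.95 ± 1.16 (SD, n = 10; exact permutation p = 0.0391, adjusted p = 0.0488). Both calls lay just inside the threshold of 0.05. The first was lost without any single library other than naive 4 or naive 5, with adjusted p up to 0.0893. The second was lost without any single library other than naive 5, with adjusted p up to 0.0977. Rapgef1 and Rapgef2 did not differ detectably, with a paired difference of −0.18 ± 1.37 (SD, n = 10; exact permutation p = 0.688, adjusted p = 0.764). That difference depends on the length used: Rapgef2 has 13785 exon bases in all but 6573 in its longest transcript, and with the latter the difference was −0.94 (exact permutation, adjusted p = 0.0928).

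Rasip1 is a vascular Rap1 effector needed to form and keep an open vessel lumen. It measured 103, 119, 171, 179.8 and 0.75 CPM in the naive libraries, by replicate number. The SCVS libraries, numbered likewise, gave 156, 298, 79.8, 127 and 55.1 CPM. Naive 5, with 10 counts, was at 0.524% of the mean of the other 9 libraries, and SCVS 2 was the highest. Naive and SCVS libraries overlapped, with means of 115 ± 71.6 and 143 ± 95.3 CPM (SD, n = 5 per group). The log2 fold change was 0.24 (standard error 0.88), and it turned to −0.08 without naive 5 and −0.19 without naive 1 and naive 5. Izumo1, which shares 654 exon bases with Rasip1 on the same strand, had 0 to 62 counts in naive and 0 to 91 counts in SCVS libraries.

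Radil, a relative of Rasip1 that also binds active Rap, had 0 counts in every naive replicate. Across SCVS libraries 1 to 5 it had 0, 130, 0, 0 and 5 counts, so that SCVS 2 alone held nearly all of its reads. It failed the filter of more than 5 counts in at least 3 libraries and was not tested for a difference between the groups in the main fit. Without that filter edgeR gave a log2 fold change of 7.67 (edgeR adjusted p = 0.296), a value that rests on 0 naive counts and mostly on SCVS 2. A count of 0 in naive libraries allows a level of up to 0.215 to 0.288 CPM. Rasip1 exceeded Radil per length in 10 of 10 libraries, by 4.68 ± 1.63 on the log2 scale (SD, n = 10; exact permutation p = 0.00195, adjusted p = 0.00326). With Radil at 0 in 8 libraries the pseudocount sets this size, and it was 7.41 with a pseudocount of 0.1.

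The low Rapgef3 and Rasip1 levels in naive 5 came with low general endothelial markers in that library, 9.19% of the mean of the other 9 libraries. Blood endothelial markers were at 4.43% of that mean, lymphatic markers at 11.8% and mural markers at 172%. At 5078 CPM, the mural sum of naive 5 lay within the 390 to 7532 CPM of the other 9 libraries. The lymphatic markers were not all low in naive 5, where Prox1 had 843 counts and Pdpn 351, while Lyve1 had 1 and Reln 11. Prox1 was at 63.2 CPM there, against 0 to 223 CPM in the other libraries. The mural sum of naive 5 was nearly all Rgs5, with 67407 counts, while Acta2 had 276 counts and Myh11, Pdgfrb and Tagln had 0. This was not particular to naive 5. Rgs5 was 3589 of 3606 CPM in naive 4 and 5812 of 5838 CPM in SCVS 2, but 427 of 1039 CPM in naive 2. Not every member was low to this degree. Rap1a stood at 39.2% and Rap1b at 37.2% of the mean of the other libraries, and 4 of the 10 members had their lowest value in naive 5. Rap2a stood at 150% and Rap2c at 115%, so that both were above the mean of the other libraries there. The part of cell makeup in these values was not tested.

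**Figure D3:**
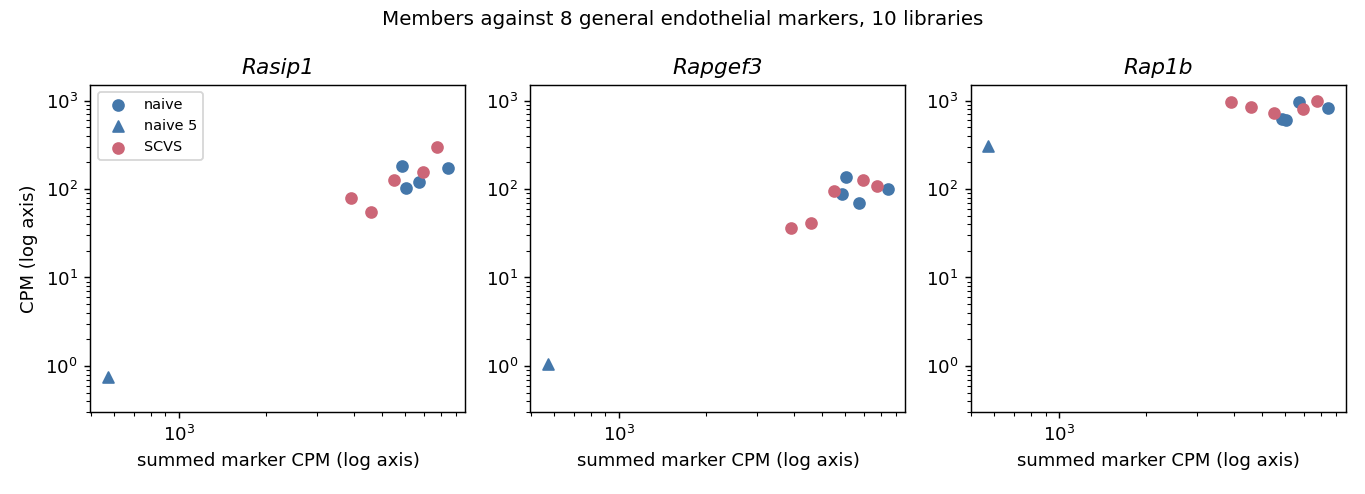
CPM of Rasip1, Rapgef3 and Rap1b against the summed CPM of 8 general endothelial markers, both on log axes, 1 point per library. Naive 5 (triangle) lies at 569 CPM of markers, with 0.75 CPM of Rasip1, 1.05 CPM of Rapgef3 and 302 CPM of Rap1b, and the other 9 libraries cluster at the right.

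The genes whose pattern over the 10 libraries was most like that of Rasip1 were Rbp7, Hspg2 and Cdh5. Likeness was the Euclidean distance between log2(CPM + 1) values centred on each gene's mean, and it was 1.24 to 1.51 for them, against a median of 7.39 over the tested genes. Hspg2 encodes the basement membrane proteoglycan perlecan, and Cdh5 encodes VE-cadherin. Their counts in naive 5 were 6 for Rbp7, 1 for Hspg2 and 40 for Cdh5. Like Rasip1, each had its lowest CPM there, so this 1 library weighs heavily in their distances. Likeness without naive 5 was not tested. The nearest to Rap2b were Api5, Gm14121 and Hnrnpab, with distances of 1.18, 1.22 and 1.24 and a median of 5.22. Rap2b spanned only 0 to 3.12 CPM, and on the log2(CPM + 1) scale genes of little spread lie near it. The Rap2b counts also chose the set, so nothing is read from these distances. Unlike Rap2b, both Api5 and Hnrnpab were well covered, from 80.2 to 283 CPM and from 106 to 571 CPM.

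The promoters of Rasip1 and Rapgef3 are shown because these are the members that nearly vanished together in naive 5. Each is the 250 bases before a start that RefSeq gives on the gene's strand, 5′ to 3′, in build GRCm38.p6, with capitals marking a match to AGGAAG or its reverse complement CTTCCT. These letters hold the GGAA core that endothelial ETS factors such as Erg bind, and they were chosen with the sequences in view. Both windows hold 1 match. The Rasip1 window ends where the gene begins, whereas the Rapgef3 window lies inside the annotated gene, before an internal start.
Rasip1, chr7:45627287-45627536, plus strand: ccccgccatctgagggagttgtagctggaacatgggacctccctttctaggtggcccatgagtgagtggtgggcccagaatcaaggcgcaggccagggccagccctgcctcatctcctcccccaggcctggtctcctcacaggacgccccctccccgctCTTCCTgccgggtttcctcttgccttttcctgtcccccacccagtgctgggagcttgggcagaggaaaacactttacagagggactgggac
Rapgef3, chr15:97767667-97767916, minus strand: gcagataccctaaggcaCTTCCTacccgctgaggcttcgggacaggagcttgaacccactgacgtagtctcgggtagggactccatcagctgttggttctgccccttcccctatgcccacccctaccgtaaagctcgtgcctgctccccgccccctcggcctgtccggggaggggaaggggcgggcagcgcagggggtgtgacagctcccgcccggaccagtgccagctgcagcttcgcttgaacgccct
Among 32851 windows of the same length in the RefSeq table, 29.5% hold such a match, as do 5 of 11 windows found for 9 of the members. A match is a description of letters and not a binding site.

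The Rasip1 gene itself spans 45627537 to 45639092 of chromosome 7, and Rapgef3 spans 97744770 to 97768419 of chromosome 15. Rap2b lies at 61364507 to 61368703 of chromosome 3, where Rap1a (105727260 to 105801394) and Rapgef2 (79062511 to 79286545) also lie. Rap1b lies at 117814597 to 117845974 of chromosome 10, Rap2a at 120478461 to 120507194 of chromosome 14, and Rap2c at 51003912 to 51020091 of chromosome X. Rapgef1 lies at 29619720 to 29740364 of chromosome 2 and Radil at 142483795 to 142551098 of chromosome 5. All of these spans are RefSeq's in GRCm38.p6.

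In the comparison of SCVS with naive mice over all 14815 tested genes, edgeR's quasi-likelihood test called 0% of genes at an adjusted p under 0.1, and 460 had an unadjusted p under 0.05. DESeq2 called 0.769% of them. No member was called by either tool. For Rap2b the log2 fold change was 6.16 (standard error 1.46), a value that rests on near-zero naive counts, with an adjusted p of 0.964 in edgeR and 0.283 in DESeq2. It was 5.96 without naive 5 and 5.72 without naive 1 and naive 5. The other 8 tested members had an adjusted p of 1.0 in both tools. Of the 9 tested members, 5 had a log2 fold change above 0 and 4 below, with a median of 0.18. Without Rap2b these were 4 and 4, with a median of 0.08, and the median over all tested genes was −0.03. The biological coefficient of variation over the tested genes was 1.59.

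A list of 35 other Rap pathway genes was examined in the same fit, and 32 of them could be tested. None was called higher or lower by edgeR or DESeq2, which gave no adjusted p for Sipa1l1 and Rassf5, and for none did the groups fail to overlap. Log2 fold changes were above 0 for 19 and below 0 for 13, with a median of 0.31. Of the 7 tested exchange factors 5 were above 0 and 2 below, and of the 4 adaptors 3 were above 0 and 1 below. Of the 14 effectors, 5 were above 0 and 9 below, with a median of −0.17. The GTPase-activating proteins had a median of 0.68, with 6 above 0 and 1 below. Their standard errors ran from 0.55 to 1.98, and some of these signs changed when a single library was left out.

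Sipa1l1, a Rap GTPase-activating protein, had the largest positive difference of the 32 tested genes of the list. It had 6, 40, 1, 124 and 457 counts in the naive libraries, by replicate number. Values for the SCVS libraries were 410, 442, 894, 390 and 408 counts. The groups overlapped through naive 5, while the other 4 naive libraries lay below all SCVS libraries. The log2 fold change of Sipa1l1 was 2.11 (standard error 1.28), and without naive 5 it was 3.71, with an adjusted p of 0.906 in edgeR.

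Rasa3, which acts on Ras and Rap, had among them the next largest positive difference. It had 2 to 311 counts in naive and 0 to 1243 counts in SCVS libraries, with a log2 fold change of 1.65 (standard error 1.74), or 2.27 without naive 1 and naive 5. The largest negative difference among the tested genes was that of Map4k4, a kinase effector of Rap2, with 66.4 CPM on average in naive and 29.9 CPM in SCVS libraries. Its counts ranged from 209 to 1557 in naive and from 18 to 788 in SCVS libraries, and its log2 fold change was −1.22 (standard error 0.82), or −1.71 without naive 1 and naive 5. Sipa1l3 followed at −0.97 (standard error 1.61), or −1.47 without both, with 0 to 154 counts in naive and 3 to 116 counts in SCVS libraries. None of these 4 genes passed the threshold in any of the alternatives tried.

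**Figure D4:**
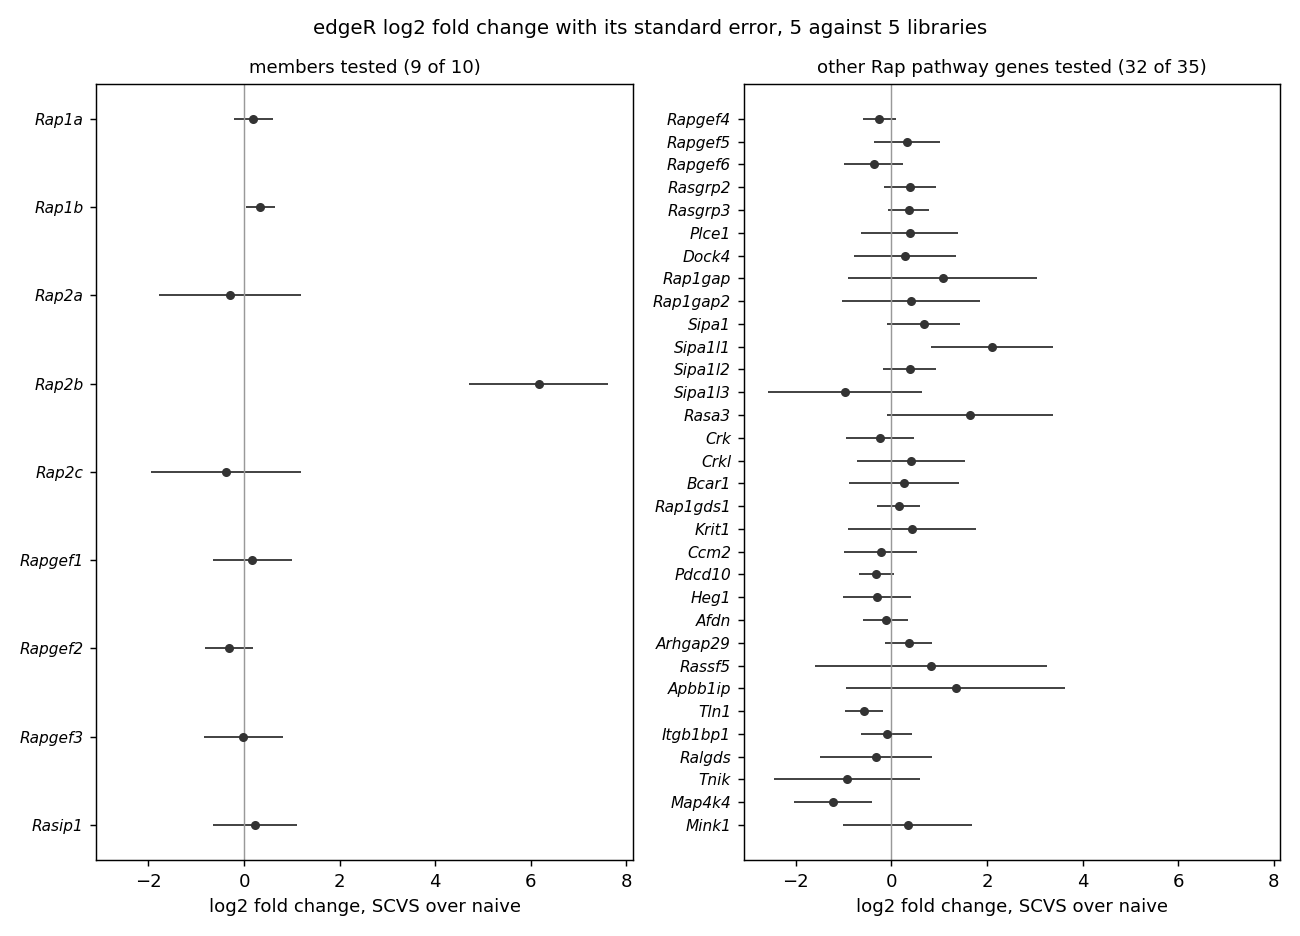
Log2 fold change of SCVS over naive from edgeR, with a standard error derived from its test statistic. The 9 tested members are at left and the 32 tested genes of the pathway list at right, with 5 libraries per group. Rap2b at 6.16 stands far from the others on near-zero naive counts, and the remaining values lie between −1.22 for Map4k4 and 2.11 for Sipa1l1.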

How the data were processed

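RNA of sorted female meningeal LECs was sequenced in 5 naive and 5 SCVS replicates, grouped by the labels. The deposited values are raw counts of reads per gene, which the authors made from whole-transcriptome amplified libraries with, per the submitters' processing notes, cutadapt 1.9.1, HISAT2 2.0.1 and HTSeq 0.6.1. The notes name GRCm38, whereas the study's methods name mm9. Only 58.8% of the 55401 IDs are in the mm9 annotation GENCODE M1, so coordinates are from RefSeq GRCm38.p6, while exon lengths are from GENCODE M1.

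Genes that exceeded 5 counts in 3 or more replicates were tested with edgeR 4.0.16 (TMM, quasi-likelihood test, Benjamini-Hochberg, threshold 0.1 on the adjusted p) in R 4.3.3. The procedure was run on simulated counts, where recovery of changes was required only at a spread below that of these data. How well it finds changes at the biological coefficient of variation found here, 1.59, is not given. The absence of calls therefore does not show an absence of change. DESeq2 1.42.0 and limma 3.58.1 were alternatives, with other scalings, no low-count filter, a replicate block and each replicate left out. The fit without naive 1 and naive 5 was chosen after seeing the data. Level pairs used sign-flip permutation of log2(CPM per kb + 1), with pairs within a role and Rap2b left out because its counts chose it. A floor of 3 counts was used, and the limits it gives for 0 counts cover counting error only. edgeR's test gives no standard error, so each one here is the absolute log2 fold change divided by the square root of its F statistic. Like the SDs over libraries, these standard errors include the spread between replicates. They are rough for genes with near-zero counts, such as Rap2b.

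Text names all 10 members, pathway genes that were called or whose groups did not overlap, the 2 largest log2 fold changes in each direction, and the 3 genes nearest in pattern to Rap2b and Rasip1. Members and lists were chosen with earlier results of these data known. Same-numbered replicates deviated together weakly at most (r from −0.017 to 0.149, 1 of 5 over 0.1), against −0.114 to 0.0756 for other pairs. The highest value of all, 0.149, was that of naive 5 with SCVS 5. Whether same-numbered replicates shared a batch was not tested. Replicates are separate pools, per the labels.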

Additional observations from a re-analysis of the deposited data

Results flagged for a closer look

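Of the 19 group values tested over the members, 5 held a library far from the other 4 of its group. Chance gives such a gap in about 1 in 20 groups of normally distributed values. CPM need not be so distributed, so no excess over chance is read from these 5. The rate also does not hold for the near-zero counts of Rap2b and Radil, and the Rap2b counts chose the set. Rap1a was at 268 CPM in SCVS 1, against 117 to 151 CPM in the other SCVS replicates. Rap2a was at 55.7 CPM in SCVS 2, against 12.3 to 22.7 CPM in the others. Radil was at 10.7 CPM in SCVS 2, against 0 to 0.501 CPM in the others. Rapgef1 was at 109.9 CPM in naive 4, against 12.0 to 33.5 CPM in the other naive replicates. Rap2b was at 0.0737 CPM in naive 4, which is 1 count, against 0 in the others. No explanation for these values was tested.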

How the results depend on the processing

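No member and no gene of the Rap pathway list was called under any other setting tried or without naive 1 and naive 5. Over all tested genes, DESeq2 called 114 and limma with voom 3, where edgeR called 0 in each of its settings. With a replicate block edgeR called 0 genes, and 266 had an unadjusted p under 0.05, against 460 without it. The log2 fold changes of Rap1b, Rap2b and Rapgef2 kept their sign in all 17 alternatives, while those of Rap1a, Rap2a, Rap2c, Rapgef1, Rapgef3 and Rasip1 changed sign in 2, 3, 1, 4, 8 and 3 of them. The level difference Rapgef1 minus Rapgef3 was no longer called with a pseudocount of 0.1 (−1.20). Rapgef2 minus Rapgef3 was not called with that pseudocount (−0.92) or with the longest transcript as length (−0.47), which also moved Rapgef1 minus Rapgef2 to −0.94, still not called. With each replicate left out in turn, the former ranged from −1.43 to −0.90 and the latter from −1.23 to −0.78. In the same runs Rap2a minus Rap2c ranged from −0.12 to 0.65 and Rapgef1 minus Rapgef2 from −0.41 to 0.047, both crossing 0 without a call. Leaving out a replicate also leaves fewer libraries, and the cause of these changes was not tested. At 3 counts or fewer, as for Rap2b in SCVS 3, presence cannot be told from counting error.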
